A study of Homo sapiens with 11 samples.

Results

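The 39 HOX genes of the 4 human HOX clusters were described in 2 cell lines, with the members chosen by symbol from all genes listed. The 39 genes were listed among 26237 gene promoters in the H3K4me3 ChIP-Seq of BEAS-2B cells and among 28252 genes in the RNA-Seq of RT4 cells. BEAS-2B is an established human lung epithelial line and RT4 is an established human bladder line. In each line there were untreated cells (UT), cells kept for 6 weeks in 100 μM NiCl2 (Ni-E), and cells that were kept in it likewise and afterwards grown without nickel (Ni-W). BEAS-2B Ni-W cells were 1 population expanded from a single colony and kept for more than 6 months without nickel, although a label also names 2 weeks, so that growth from 1 cell and nickel washout cannot be told apart. RT4 Ni-W cells were kept without nickel for 2 weeks. There was 1 H3K4me3 library for each condition, with no replicate and therefore no test, and there were 2 RNA-Seq replicates for each condition.

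HOX genes encode homeodomain transcription factors that give cells of the body axis and of the limbs, gut and urogenital tract their positional identity. In each cluster the genes stand in the order in which they are used along the axis, from paralog 1 (anterior) to paralog 13 (posterior), and genes of the same number in different clusters are paralogs. Adult epithelial cells keep a pattern of active and silent HOX genes, in which trithorax-group MLL complexes place H3K4me3, a histone mark of active promoters, and Polycomb complexes keep other HOX genes silent.

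The HOXA cluster holds 11 genes on chromosome 7, HOXB holds 10 (GRCh38, chr17:48528526-48728750), HOXC holds 9 (chr12:53938831-54056030) and HOXD holds 9 (chr2:176092721-176190907). The promoter values are RPKM (reads divided by the length of the window and the size of the library) over a window of 2 kb on each side of 1 transcription start site per gene, and the position of the window is not given, so that a gene with several starts was seen at 1 of them only. HOXC4, HOXC5 and HOXC6 had the same value in each of the 3 libraries and were read as 1 promoter, which left 37 distinct promoters for the 39 genes.

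The upstream sequences of the 3 HOXD promoters that were higher in Ni-W cells, and of the start that RefSeq gives to both HOXC4 and HOXC5, whose shared level was 1.5-fold or more lower in Ni-W than in Ni-E but not than in UT cells, are shown so that their base composition can be compared. Whether the H3K4me3 windows lie at these starts is not given. They hold the 250 bases before the start (RefSeq, GRCh38.p14), 5′ to 3′ on the plus strand, with each CpG in capitals. They lie at chr2:176129455-176129704 for HOXD8, chr2:176099545-176099794 for HOXD12, chr2:176188418-176188667 for HOXD1 and chr12:54016638-54016887 for HOXC4 and HOXC5.
HOXD8: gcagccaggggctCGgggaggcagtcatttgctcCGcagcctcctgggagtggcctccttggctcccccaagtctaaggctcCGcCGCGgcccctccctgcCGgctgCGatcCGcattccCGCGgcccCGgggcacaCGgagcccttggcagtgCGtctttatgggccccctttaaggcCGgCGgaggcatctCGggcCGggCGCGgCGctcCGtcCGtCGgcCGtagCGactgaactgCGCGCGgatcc
HOXD12: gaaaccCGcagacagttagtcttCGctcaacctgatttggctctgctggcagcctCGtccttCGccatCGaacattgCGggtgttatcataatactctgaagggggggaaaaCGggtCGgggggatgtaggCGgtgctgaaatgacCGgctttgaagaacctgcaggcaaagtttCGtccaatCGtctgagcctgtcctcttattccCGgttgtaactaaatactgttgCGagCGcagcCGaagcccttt
HOXD1: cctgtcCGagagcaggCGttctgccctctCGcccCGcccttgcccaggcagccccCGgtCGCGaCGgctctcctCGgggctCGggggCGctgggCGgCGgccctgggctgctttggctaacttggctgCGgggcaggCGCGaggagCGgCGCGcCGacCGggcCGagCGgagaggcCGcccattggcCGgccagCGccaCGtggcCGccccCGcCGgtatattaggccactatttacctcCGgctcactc
HOXC4 and HOXC5: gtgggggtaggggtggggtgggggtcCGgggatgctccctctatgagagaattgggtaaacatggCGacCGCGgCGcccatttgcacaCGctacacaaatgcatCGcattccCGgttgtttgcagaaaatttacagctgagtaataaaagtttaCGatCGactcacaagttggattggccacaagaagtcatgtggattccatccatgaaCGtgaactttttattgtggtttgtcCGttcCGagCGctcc
The number of CpGs was 28 for HOXD8, 16 for HOXD12, 31 for HOXD1 and 14 for HOXC4 and HOXC5, and the median was 11 CpGs over 34941 promoters of the same length. Sequences could be matched for 20 of the 39 genes (26 distinct starts), and their median was 19.5 CpGs. The letters ACGTG, the core of the site bound by hypoxia-inducible factors and also part of the longer CACGTG, occurred on either strand in 14 of the 26 windows (53.8%) and in 18.5% of all windows. The 26 windows included several starts of HOXA3, and from HOXB and HOXC only HOXB1 and the start of HOXC4 and HOXC5. ACGTG itself holds a CpG, and these windows had a median of 19.5 CpGs against 11. The part of base composition in this share was not tested. The HOX and PBX pair motif TGATNNAT occurred on either strand in 3 of the 26 (11.5%) and in 6.49% of all, and TATAAA in 5 (19.2%) against 10.8%.

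Library totals recovered from the RPKM steps were 28385724 reads for UT, 37493963 for Ni-E and 29933551 for Ni-W. Of these, 37.6%, 36.0% and 22.9% lay in promoter windows, so that the Ni-W library stood apart from the other 2 before any gene was compared. The library medians were 1.57 RPKM for UT, 1.39 for Ni-E and 1.12 for Ni-W, and levels were divided by them before libraries were compared. Intervals of 95% (Wilson) and ratios with 95% ranges cover counting error only, and 3 reads correspond to between 0.0200 and 0.0264 RPKM.

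UT BEAS-2B cells carried H3K4me3 at a part of each cluster. At least 1 RPKM was found at 21 of the 39 members (53.8%), or 19 of the 37 distinct promoters (51.4%), close to the 52.8% of all promoters. By cluster, 5 of 11 HOXA, 8 of 10 HOXB, 7 of 9 HOXC and 1 of 9 HOXD genes reached this level, and the medians over distinct promoters were 0.784, 2.25, 4.85 and 0.308 RPKM. With the shared HOXC promoter counted once, the median was 1.60 RPKM for the 13 distinct promoters of the central paralogs 4 to 8, 0.546 for the 8 of the anterior paralogs 1 to 3 and 0.590 for the 16 of the posterior paralogs 9 to 13.

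HOXB9 had the highest level of all members in UT cells, with 9.62 RPKM (interval 9.06 to 10.2). HOXC8 was the highest of HOXC, with 7.05 (6.58 to 7.56), and its interval lay below that of HOXB9. The highest HOXD member, HOXD1, had only 1.02 (0.852 to 1.23). Marked and unmarked genes alternated within HOXA, where HOXA5, HOXA11 and HOXA13 lay between 2.85 and 5.68 RPKM while HOXA3, HOXA6, HOXA7, HOXA9 and HOXA10 lay between 0.106 and 0.203.

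**Figure D1:**
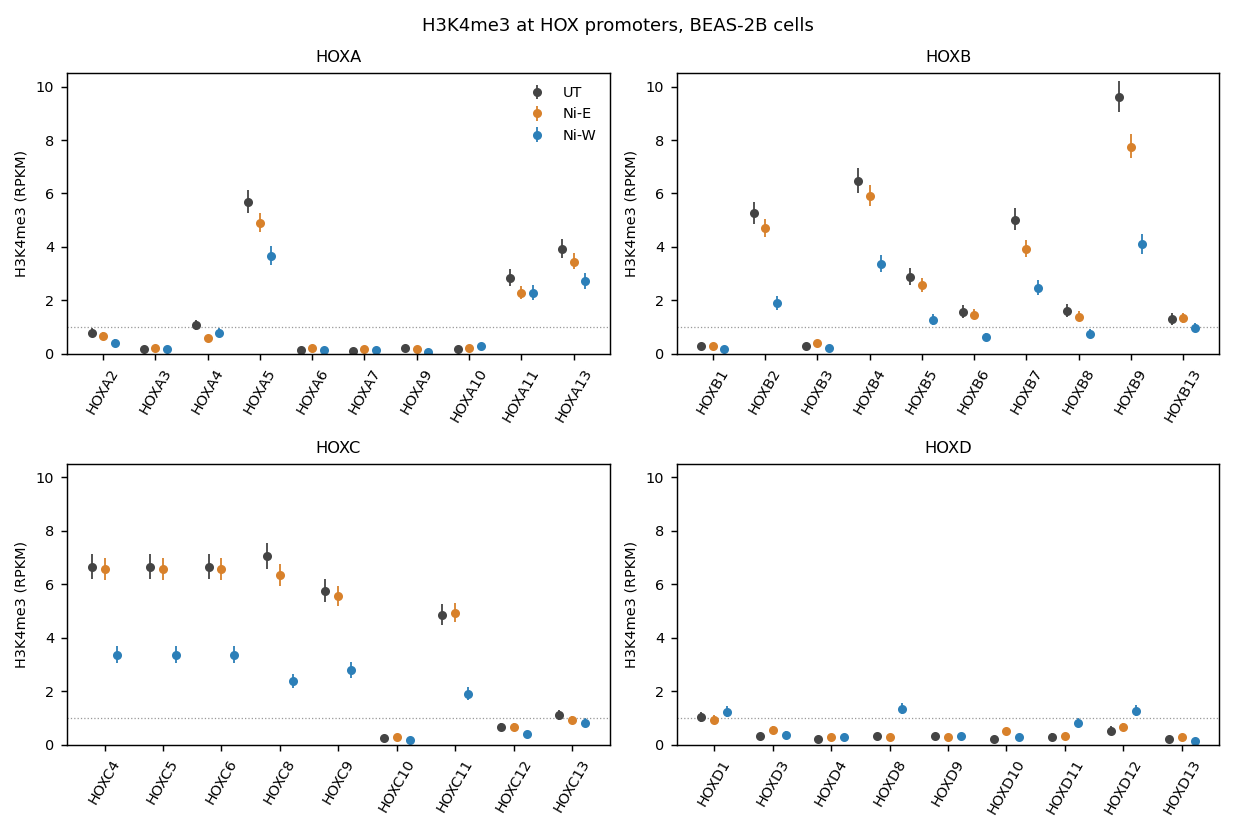
H3K4me3 (RPKM, linear axis) of the HOX promoters named here in the UT, Ni-E and Ni-W libraries of BEAS-2B cells, with bars for the 95% Wilson interval of the reads and a dotted line at 1 RPKM. The UT and Ni-E points lie near each other, the Ni-W points of HOXB9, HOXB2 and HOXC8 lie lower, and HOXD8 and HOXD12 pass 1 RPKM only in Ni-W. HOXC4, HOXC5 and HOXC6 share 1 value.

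During exposure the HOX promoters of BEAS-2B cells at 1 RPKM or above stayed close to their levels in UT cells, apart from HOXA4. Of 21 members at 1 RPKM or above in either library, 0 were 1.5-fold or more higher and 1 (HOXA4) was 1.5-fold or more lower after median scaling, where 0.847% of all 13935 promoters were higher and 0.567% were lower. The median log2 ratio of these members was 0.02 (0.01 over their 19 distinct promoters), against 0.11 for all such promoters. The chromatin dynamic score is the difference of the square roots of the median-scaled levels. Its median was 0.0335 over the 39 members, 0.0288 over the 37 distinct promoters and 0.0528 over all promoters. The counting error of 1 score was 0.0510, which does not measure the error of these medians. The same 1 gene was past the fold under each of the 3 scalings run, while the higher promoters were 59.9% of all those past the fold with median scaling, 20.6% without it and 49.1% after quantile normalization. The sign of the HOX median is not firm, being −0.0171 without median scaling and −0.00622 after quantile normalization.

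HOXA4 had 1.07 RPKM in UT, 0.580 in Ni-E and 0.777 in Ni-W cells, a low level in each. Its median-scaled level was 1.64-fold lower in Ni-E than in UT cells (log2 −0.71, range −1.11 to −0.32), and in Ni-W cells it was back beside UT (log2 0.02, range −0.37 to 0.41), the latter with a sign that turns to negative without scaling and after quantile normalization. Among the 21 members, the next lowest scores of the exposure were those of HOXB9 (−0.112) and HOXB7 (−0.104). HOXB7 had 5.01 RPKM in UT, 3.93 in Ni-E and 2.46 in Ni-W cells, with intervals that did not overlap. The highest were those of HOXC11 (0.125), of the shared HOXC4, HOXC5 and HOXC6 promoter (0.116) and of HOXC9 (0.0872). HOXC11 had 4.85 RPKM in UT and 4.93 in Ni-E cells, and the shared promoter had 6.65 and 6.56, and without median scaling their log2 ratios were 0.02 and −0.02. HOXC9 had 5.75 RPKM in UT, 5.56 in Ni-E and 2.79 in Ni-W cells, with UT and Ni-E overlapping and Ni-W lower. A pair of weakly marked HOXD genes stood higher in score, though below 1 RPKM in all libraries, and were picked out after their values were seen. HOXD10 had 0.229 RPKM in UT, 0.507 in Ni-E and 0.301 in Ni-W (score 0.222 for Ni-E), and HOXD3 had 0.308, 0.553 and 0.376 (score 0.188).

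In Ni-W cells the clusters parted. The comparison with UT shares the UT library with the one above. Among 23 members at 1 RPKM or above in either library, 7 (30.4%) were 1.5-fold or more lower than in UT cells, where 18.4% of all 14059 promoters were lower, and 3 were higher, where 4.36% of all were higher. With the shared HOXC promoter counted once these were 7 (33.3%) and 3 (14.3%) of 21. The 7 lower genes were HOXB2, HOXB5, HOXB6, HOXB8, HOXB9, HOXC8 and HOXC11, and the 3 higher genes were HOXD1, HOXD8 and HOXD12, while none of the 5 such HOXA genes passed in either direction. The median log2 ratio was −0.66 for 8 HOXB, −0.56 for 5 distinct HOXC, −0.04 for 5 HOXA and 1.75 for 3 HOXD promoters, against −0.32 for all such promoters. HOXD8 and HOXD12 reached 1 RPKM only in the Ni-W library, so that the threshold itself fixed their direction, and over all 9 HOXD genes, with no threshold, the median was 0.88. Below 1 RPKM in HOXA, HOXA9 and HOXA10 were picked out after their values were seen. HOXA9 was lower (23 reads in UT, 6 in Ni-W, log2 −1.53, range −2.83 to −0.24). HOXA10 was higher (22 and 33 reads, log2 1.00, range 0.22 to 1.77). The score had a median of −0.0210 over the 39 members and −0.0166 over the 37 distinct promoters, against −0.0266 over all promoters.

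HOXC8, a gene of the thoracic region, had 7.05 RPKM in UT, 6.34 in Ni-E and 2.36 (2.10 to 2.66) in Ni-W cells. Ni-W stood well below the other two libraries, and the scaled level was 2.13-fold lower than in UT cells (log2 −1.09, range −1.29 to −0.90), the lowest score of all members (−0.668).
HOXB9 had 9.62, 7.75 and 4.10 (3.75 to 4.48) RPKM in the same order. The scaled level in Ni-W cells was 1.67-fold lower than in UT cells (log2 −0.74, range −0.90 to −0.59), and after quantile normalization the log2 ratio was −0.26 for Ni-E against UT and −0.20 for Ni-W against Ni-E.
HOXB2, which patterns the hindbrain, had 5.26, 4.70 and 1.89 (1.66 to 2.15) RPKM, a 1.99-fold difference between Ni-W and UT (log2 −0.99, range −1.21 to −0.77). HOXC11 had the same 1.89 RPKM in Ni-W cells, and its level was 1.83-fold lower (log2 −0.88, range −1.10 to −0.65). HOXB9 no longer passed 1.5-fold after quantile normalization, and the other 6 lower genes passed under each of the 3 scalings run.

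HOXD8, a central member of a cluster that was almost free of the mark in UT cells, moved the other way. It had 0.326 RPKM (37 reads) in UT, 0.267 (40 reads) in Ni-E and 1.34 (160 reads, interval 1.14 to 1.56) in Ni-W cells. UT and Ni-E overlapped and Ni-W lay above both, 5.74-fold above UT after scaling (log2 2.52, range 2.01 to 3.04), the highest score of all members (0.637).
HOXD12, a limb and genital tract gene, had 0.528 (60 reads), 0.667 (100 reads) and 1.27 RPKM (152 reads, 1.08 to 1.49), 3.37-fold higher in Ni-W than in UT cells (log2 1.75, range 1.32 to 2.18). HOXD1 had 1.02, 0.933 and 1.23 RPKM with overlapping intervals, and its 1.68-fold difference (log2 0.75, range 0.40 to 1.10) fell under 1.5-fold without median scaling, where the log2 ratio was 0.26. HOXD11 stayed below 1 RPKM, with 0.299, 0.320 and 0.802, and was singled out after its values were seen, with a log2 ratio of 1.91 (1.35 to 2.47). Of the 9 HOXD members, all under 1 RPKM in Ni-E cells, 7 had positive scores past counting error and 0 had negative ones, where 29.3% of the 12549 promoters under 1 RPKM in Ni-E cells had positive and 5.03% had negative ones. HOXD13 was the only HOXD member with a negative score, under each of the 3 scalings run. Their levels in Ni-W cells remained low, with a cluster median of 0.376 RPKM.

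**Figure D2:**
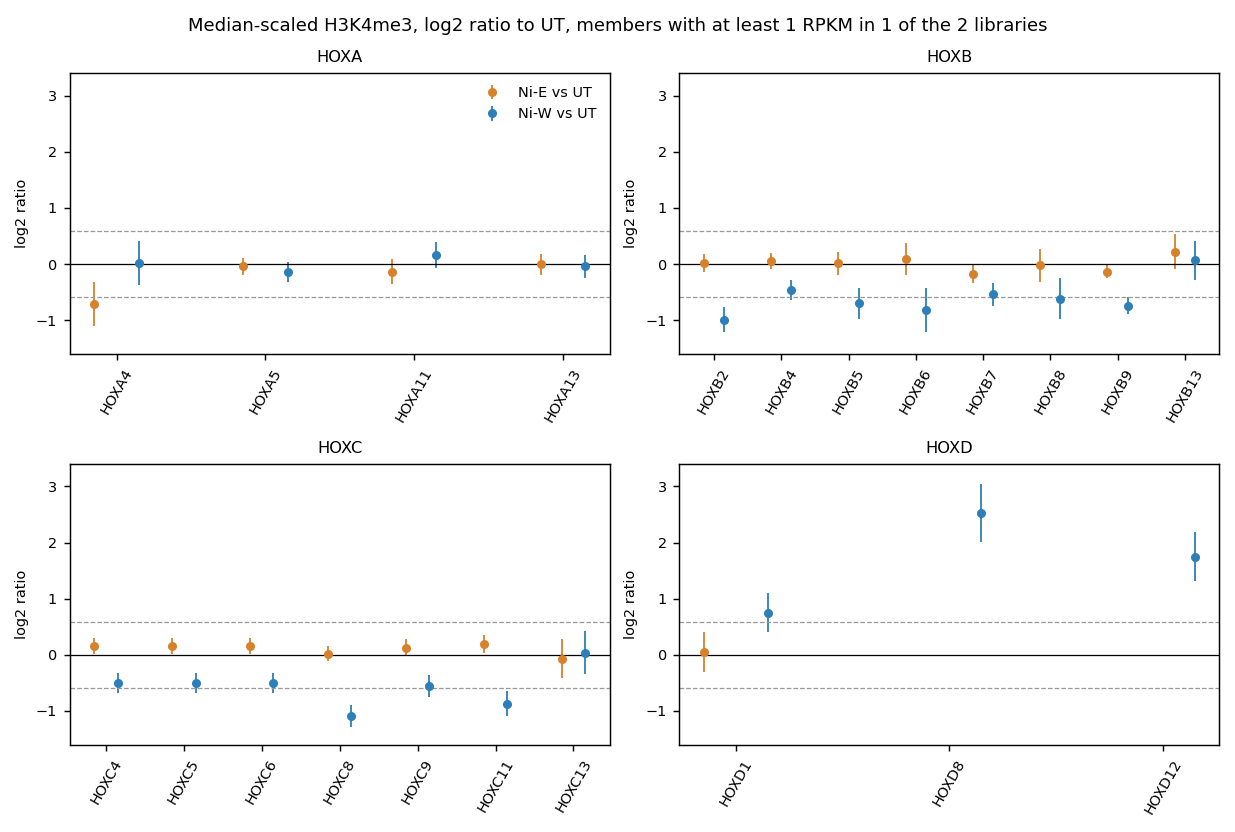
Log2 ratio of median-scaled H3K4me3 to UT for the HOX promoters named here with at least 1 RPKM in 1 of the 2 libraries compared, for Ni-E and Ni-W cells, with bars for the 95% range from counting and dashed lines at 1.5-fold. The Ni-E points lie around 0 except HOXA4, and the Ni-W points lie below 0 for HOXB2 and HOXC8 and above 0 for HOXD8, HOXD12 and HOXD1.

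The direction of HOXA depended on the scaling. HOXA5 had 5.68 RPKM in UT, 4.89 in Ni-E and 3.67 in Ni-W cells, and HOXA13 had 3.92, 3.45 and 2.72, both lowest in Ni-W cells. After median scaling their log2 ratios of Ni-W to UT were −0.15 and −0.04, and after quantile normalization they were 0.17 and 0.29. With no threshold on the level, the median log2 ratio of all promoters was −0.12 with median scaling, −0.61 without it and −0.05 after quantile normalization. For HOX genes the split was 3 higher and 7 lower with median scaling, 2 higher and 15 lower without it, and 3 higher and 6 lower after quantile normalization. Of all promoters, 18.4% were lower with median scaling, 71.2% without it and 5.28% after quantile normalization, and 4.36%, 1.86% and 8.09% were higher, so that the 15 of 23 HOX genes lower without scaling (65.2%) did not exceed the share of all promoters. The higher promoters were 19.2%, 2.54% and 60.5% of those past the fold in the same order.

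Against Ni-E cells, which share the Ni-W library with the comparison above, 11 of 21 members (52.4%) were lower in Ni-W cells, where 30.5% of all 13965 promoters were lower, and 3 (14.3%) were higher, where 4.04% of all were higher. With the shared HOXC promoter counted once, 9 of 19 (47.4%) were lower and 3 (15.8%) were higher. The lower group added HOXC9 and the shared HOXC4, HOXC5 and HOXC6 promoter to the 7 genes named, and the 3 higher genes were HOXD1, HOXD8 and HOXD12. None of these 3 reached 1 RPKM in Ni-E cells, so that their direction here followed from the threshold, and they share the Ni-W library with the comparison above. The lowest scores were those of HOXC8 (−0.685), HOXC11 (−0.586) and HOXB2 (−0.542), and the highest among the 21 members those of HOXD8 (0.654), HOXD12 (0.371) and HOXD1 (0.227). Without median scaling 2 members were higher and 13 of 21 (61.9%) were lower, where 64.2% of all promoters were lower. After quantile normalization 4 were higher and 6 lower, where 8.02% of all were higher and 5.82% lower, while the higher promoters were 11.7% of all those past the fold with median scaling, 3.41% without it and 57.9% after quantile normalization. The median score was −0.0852 over the members, −0.0671 over the 37 distinct promoters and −0.0746 over all promoters.

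Other promoters differed with the level and with the place in the genome. Levels were taken from the Ni-E library, which is outside the comparison of Ni-W with UT. Of the 12549 promoters below 1 RPKM there, 11512 were used and the rest left out. Their median log2 ratio was 0.37 (middle range −0.13 to 0.92), and it was 0.88 for the 9 HOXD genes. Between 1 and 3 RPKM it was −0.20 over 2337 promoters (middle range −0.48 to 0.15) and −0.66 for 4 HOXB genes. Between 3 and 7 RPKM it was −0.34 over 6127 promoters (middle range −0.55 to −0.07), −0.54 for 3 HOXB, −0.72 for 4 distinct HOXC and −0.15 for 3 HOXA promoters. HOXB9 was the only member between 7 and 15 RPKM, at −0.74, where the median was −0.35 over 5056 promoters (middle range −0.52 to −0.13). The part of the level in the HOX values was not tested.

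Other genes within 1 Mb of the clusters were read at the same threshold, leaving out microRNA, EVX and PRAC genes and the noncoding genes inside the clusters, while other noncoding genes were kept. All promoters past this threshold had a median log2 ratio of Ni-W to UT of −0.32, with 18.4% lower and 4.36% higher. The median was −0.45 for 32 promoters around HOXB, of which 12 (37.5%) were lower and 1 was higher. It was −0.31 for 30 around HOXC, of which 5 (16.7%) were lower and 1 was higher, much as for all promoters. Around HOXA it was 0.14 for 9 promoters, with 0 past the fold. Around HOXD it was 0.60 for 6 promoters (ATF2, ATP5G3, KIAA1715, MTX2, LINC01116 and LINC01117), of which 3 were higher (ATF2 and the noncoding LINC01116 and LINC01117). These 6 ranged from 0.19 to 1.08. Promoters under 0.6 RPKM in all 3 libraries within 5 Mb, where no clear mark was present, had summed log2 ratios of 0.54 (range 0.32 to 0.76, 13 promoters) around HOXD, −0.33 (−0.44 to −0.21, 39 promoters) around HOXB, −0.18 (−0.26 to −0.10, 93 promoters) around HOXC and 0.42 (0.26 to 0.59, 24 promoters) around HOXA, relative to all such promoters. The HOX genes under the same threshold had 0.18 (−0.14 to 0.50, 5 genes) in HOXD, −0.45 (−0.98 to 0.09, 2 genes) in HOXB, −0.51 (−1.32 to 0.30, 1 gene) in HOXC and −0.01 (−0.42 to 0.40, 5 genes) in HOXA, each with a range that includes 0. For Ni-E against UT, the 5 such HOXD genes had 0.47 (0.18 to 0.75), and the 13 promoters around HOXD had −0.06 (−0.28 to 0.17). For such HOX genes in the other clusters the range of Ni-E against UT included 0. The part of these regional shifts in the HOX values was not tested. ChIP input libraries were not analysed here.

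**Figure D3:**
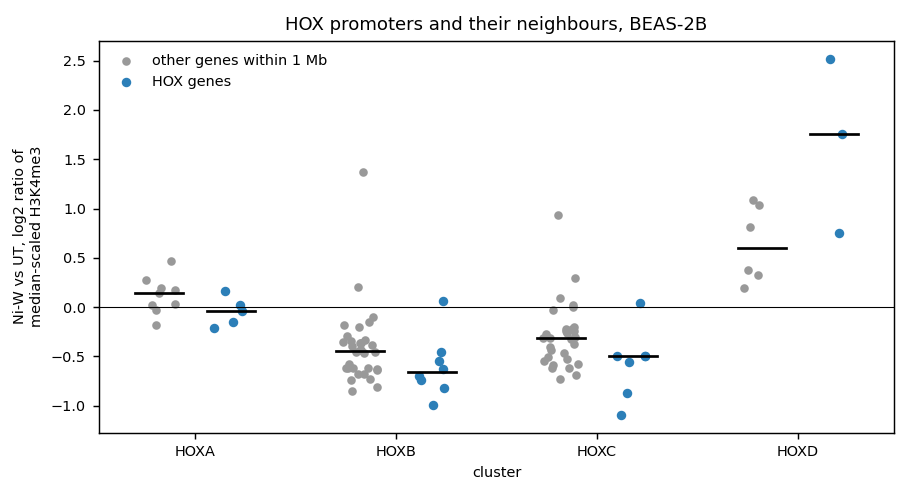
Log2 ratio of median-scaled H3K4me3, Ni-W to UT, for HOX genes (blue, 1 point per gene, so that the shared HOXC promoter counts 3 times) and for other genes within 1 Mb of each cluster (grey), each with at least 1 RPKM in 1 of the 2 libraries, with black lines at the medians. Points are spread sideways only to be seen. The medians of the neighbours are −0.45 at HOXB, −0.31 at HOXC, 0.60 at HOXD and 0.14 at HOXA, against −0.32 for all promoters. HOXD8 and HOXD12 are among the blue points only through their level in Ni-W.

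Noncoding genes inside the clusters differed in both directions in Ni-W cells. Of 16 such genes, 9 reached 1 RPKM in either library, of which 3 (HOTAIR, HOXB-AS1 and HOXC-AS2) were 1.5-fold or more lower in Ni-W cells and 1 (HAGLR) was higher. HOTAIR, the noncoding RNA of the HOXC cluster, had 4.37 RPKM in UT, 4.44 in Ni-E and 1.66 in Ni-W cells, and HOXB-AS1 had 5.45, 4.94 and 1.95. Their windows held nearly the same reads as those of HOX genes, with 496 UT reads for HOTAIR and 551 for HOXC11, 619 for HOXB-AS1 and 597 for HOXB2, and 120 for HAGLR and 116 for HOXD1, and their values were not read as independent of the HOX values. The share of all promoters lower was 18.4%. Against Ni-E cells, HOXC-AS1 joined the lower genes. In the UT to Ni-E comparison 0 of 9 passed. Of the flanking genes, 3 of 9 were lower in Ni-W than in UT cells (PRAC2 and TTLL6 beside HOXB, and SMUG1 beside HOXC) and 0 were higher, with 0 of 9 past the fold during exposure.

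Genes that work with HOX proteins or on their chromatin were also read at their own promoters. Of the TALE cofactors, homeodomain partners of HOX proteins, 8 were past 1 RPKM. Of these, PBX4 was lower in Ni-W than in UT cells and 1 other was higher. Of 23 Polycomb genes, SUZ12 was higher, where 4.36% of all promoters were higher, and CBX6, CBX7, PCGF1 and PCGF6 were lower. Of 13 genes of the MLL and UTX complexes and related enzymes, 0 were higher and 5 (KMT2B, KMT2D, ASH2L, KDM6B and DOT1L) were lower. Among all promoters 18.4% were lower. KMT2B, an H3K4 methyltransferase, had 11.3 RPKM in UT, 10.4 in Ni-E and 5.15 in Ni-W cells. Of the caudal and ParaHox genes, PDX1 was higher among 3, beside the same 4.36% of all promoters. Of the retinoid receptors and enzymes, CYP26A1, which degrades retinoic acid, was lower among 5. During exposure GSX1 was higher, where 0.847% of all promoters were higher, and no other gene of these 5 lists passed 1.5-fold.

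BEAS-2B markers gave a mixed picture for a lung epithelial label. The lung factor NKX2-1 had 2.76 RPKM in UT, 2.94 in Ni-E and 2.51 in Ni-W cells, and the epithelial keratin KRT8 had 7.33, 7.11 and 4.48. Of the other general epithelial markers, KRT18 and EPCAM were above 1 RPKM in each library. KRT19 had 0.432, 0.440 and 0.735 RPKM, and CDH1 had 1.02, 0.653 and 0.702. The airway genes SCGB1A1, KRT5 and TP63 and the alveolar gene SFTPC were below 0.5 RPKM in each library, while FOXJ1, the factor of ciliated airway cells, had 1.55 RPKM in UT, 1.18 in Ni-E and 0.810 in Ni-W cells. The mesenchymal gene VIM had 8.95, 8.41 and 4.67. COL1A1, PDGFRB, ZEB1 and CDH2 were also above 1 RPKM in each library, while COL1A2 and COL3A1 were below it in each. Of 5 mesenchymal markers past 1 RPKM, 2 were lower in Ni-W than in UT cells and 0 were higher. Of 4 general epithelial ones 0 passed in either direction, and of 4 urothelial ones 1 was lower. Among all promoters 18.4% were lower and 4.36% were higher. Of the bronchial markers 0 of 2 and of the blood markers 0 of 1 passed, and no endothelial marker reached 1 RPKM. Their part in the HOX values was not tested.

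RT4 cells transcribed a broad set of HOX genes. The libraries held between 17075833 and 27736454 estimated counts, and 32 of the 39 members passed the expression filter, with HOXB1, HOXC4, HOXC5, HOXC8, HOXC10, HOXC12 and HOXD12 left out. In UT cells 28 members had a mean of at least 1 TPM (a level per length of transcript and size of library), with 11 of 11 HOXA, 8 of 10 HOXB, 3 of 9 HOXC and 6 of 9 HOXD genes. The members together summed to 388 and 334 TPM in the 2 UT replicates, 309 and 281 in Ni-E and 364 and 320 in Ni-W. Fewer cells that transcribe a gene and less RNA per cell cannot be told apart in these bulk samples.

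HOXD1 had the highest mean level of all members, 43.0 TPM over the 6 libraries, followed by HOXA13, the posterior gene of hindgut and bladder development, with 36.4, and HOXB7 with 35.1. The ranges of these 3 over the libraries overlapped, and HOXD1 led in UT cells alone, with a mean of 63.6 TPM. In Ni-E cells the means were 32.5 for HOXB7, 31.2 for HOXA13 and 29.7 for HOXD1, and in Ni-W cells they were 42.2 for HOXA13, 35.6 for HOXD1 and 33.9 for HOXB7. HOXA13 had 45.4 and 26.2 TPM in UT, 36.3 and 26.1 in Ni-E and 57.6 and 26.8 in Ni-W cells, so that replicate 1 was above replicate 2 in each condition. HOXB7 had 39.8 and 38.03 TPM in UT, 34.2 and 30.8 in Ni-E and 32.3 and 35.4 in Ni-W cells, highest in both UT replicates. The second gene of HOXA was HOXA10, with 19.76 and 15.99 TPM in UT, 15.65 and 13.74 in Ni-E and 21.67 and 18.81 in Ni-W cells. Its range overlapped that of HOXA11 (14.02 to 18.94). The second of HOXB was HOXB2, with 28.8 and 21.97 TPM in UT, 16.3 and 16.7 in Ni-E and 20.9 and 16.8 in Ni-W cells, highest in both UT replicates.

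HOXC was the least transcribed cluster. Its highest gene was HOXC13, a hair and nail gene, with 10.6 and 8.77 TPM in UT, 10.9 and 8.73 in Ni-E and 15.5 and 12.6 in Ni-W cells. The second was HOXC9, with 4.48 and 8.15 TPM in UT, 6.05 and 8.38 in Ni-E and 6.00 and 8.91 in Ni-W cells, and with replicate 2 above replicate 1 in each condition. In HOXD, HOXD8 followed HOXD1, with 19.23 and 11.48 TPM in UT, 12.71 and 11.13 in Ni-E and 17.88 and 13.12 in Ni-W cells. UT overlapped both other conditions, and both Ni-W replicates lay above both Ni-E replicates. HOXD9 (11.2 to 15.9 TPM) overlapped it. For all 6 genes of this order other than HOXD1 and HOXB2, namely HOXA13, HOXA10, HOXB7, HOXC13, HOXC9 and HOXD8, the largest change from UT was 0.48 on the log2 scale, for HOXC13 in Ni-W cells (SE 0.19, adjusted p = 0.526, edgeR).

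**Figure D4:**
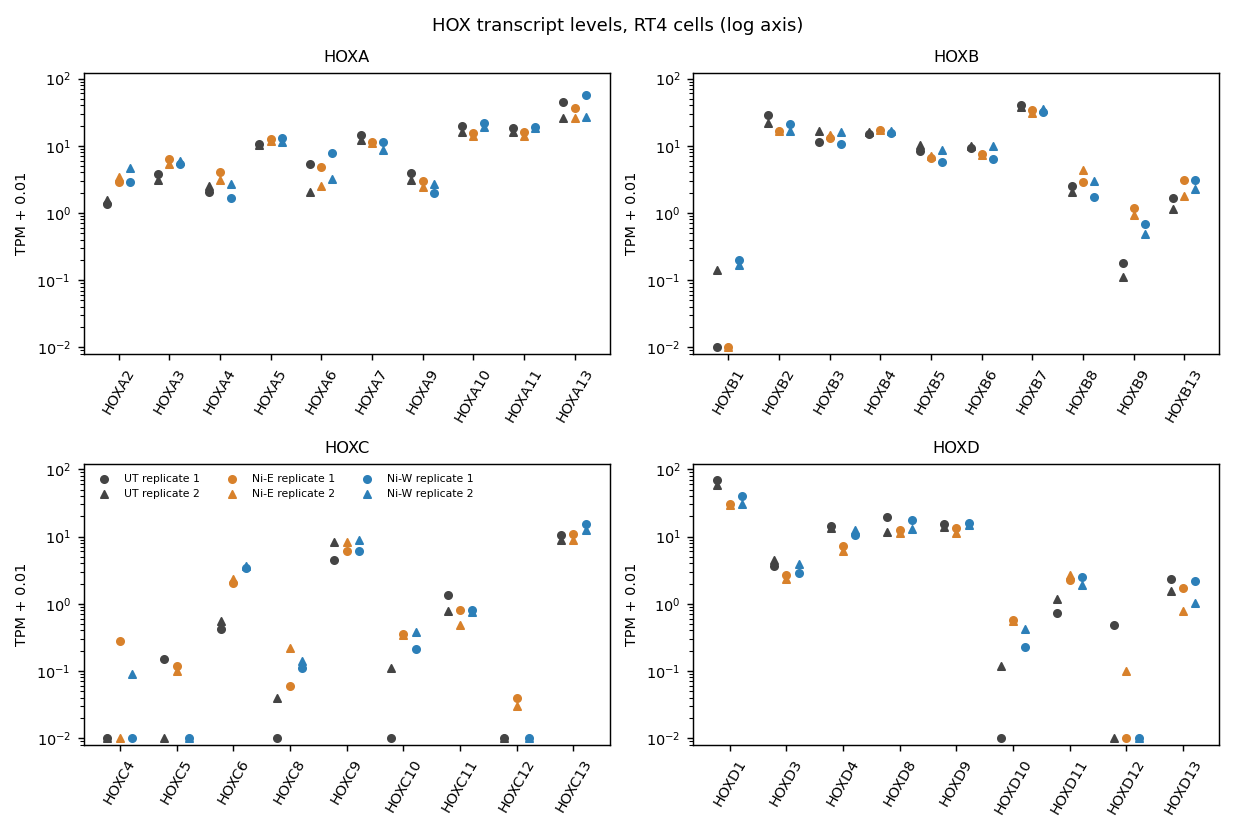
Level of the HOX genes named here in the 6 RT4 libraries, as TPM + 0.01 on a log axis, with colours for the condition and circles and triangles for replicates 1 and 2. The UT points of HOXD1 lie above those of Ni-E and Ni-W, the UT points of HOXB9 and HOXC6 lie below them, and the points of HOXA13 overlap between all 3 conditions.

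In RT4 cells under exposure, 2 of 32 HOX genes tested were called by edgeR's quasi-likelihood test at 1.5-fold and a Benjamini-Hochberg adjusted p under 0.05 over all 14502 genes. HOXB9 rose, where 1.45% of all genes rose, and HOXD1 fell, where 0.71% of all genes fell. HOXB9 had 4 estimated counts in each UT replicate and passed the expression filter through its Ni-E and Ni-W counts. Against UT it could therefore only be called higher. A p under 0.05 before adjustment was found for 8 of the 32 (25.0%) and for 12.2% of all genes. The median log2 fold change was −0.18 over the members and −0.01 over all genes tested. With the replicate number as a block, 9 of the 32 were called by edgeR, where 12.6% of all genes were called in either direction. These were HOXA2, HOXA3, HOXB9, HOXC6, HOXD10 and HOXD11, which were higher, and HOXB2, HOXD1 and HOXD4, which were lower. Like HOXB9, HOXD10 (0 and 3 estimated counts in UT) and HOXC6 (6 and 14) passed the filter only with their nickel groups. The direction of their calls against UT was therefore set by the filter.

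HOXD1 had 68.7 and 58.6 TPM in UT, 30.02 and 29.35 in Ni-E and 40.6 and 30.6 in Ni-W cells. Both UT replicates lay above the other 4 libraries. The level fell 2.15-fold during exposure (log2 −1.11 ± 0.17 SE, n = 2 per group, adjusted p = 0.0395, edgeR), and in Ni-W cells the log2 difference from UT was −0.90 ± 0.17 with an adjusted p of 0.109, or 0.00057 with the replicate block (edgeR).
HOXB9 was rare, with 0.17 and 0.10 TPM in UT (4 estimated counts in each replicate), 1.18 and 0.920 in Ni-E (28 and 37 counts) and 0.680 and 0.480 in Ni-W cells (14 and 19 counts). The groups did not overlap, and Ni-E was the highest. The level rose 7.67-fold during exposure (log2 2.94 ± 0.42 SE, adjusted p = 0.0363, edgeR), and in Ni-W cells the log2 difference from UT was 2.03 ± 0.44 with an adjusted p of 0.156, or 0.031 with the replicate block (edgeR).
When each of the 6 libraries was left out in turn, HOXB9 was never called (adjusted p from 0.0548 to 0.296, edgeR), and HOXD1 was called only where a Ni-W library was left out (0.0484 and 0.0488) and not without a UT or Ni-E library (0.242 to 0.406). The calls over all genes, 314 with all libraries, fell to 44 and 18 without a UT and to 0 without a Ni-E library, and the log2 differences stayed between 2.71 and 3.16 for HOXB9 and between −1.17 and −1.05 for HOXD1.

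HOXC6, described in full after its values were seen, had 0.410 and 0.540 TPM in UT, 2.03 and 2.34 in Ni-E and 3.45 and 3.69 in Ni-W cells, with no overlap between the 3 groups. Its log2 difference from UT was 2.21 ± 0.41 in Ni-E (adjusted p = 0.0653) and 2.87 ± 0.41 in Ni-W cells (adjusted p = 0.0588) by edgeR, and with the replicate block the adjusted p was 0.00152 and 0.000291. RSEM can divide reads of the long HOXC4, HOXC5 and HOXC6 transcripts between the genes, and the split is uncertain. Beside it, HOXC4 and HOXC5 were between 0 and 0.270 TPM in every library.

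Further members of HOXD are given for comparison with HOXD1. HOXD4, which like HOXD1 lies toward the anterior end of the cluster, had 14.15 and 13.46 TPM in UT, 7.13 and 6.02 in Ni-E and 10.45 and 12.69 in Ni-W cells, lowest in both Ni-E replicates (log2 −1.09 ± 0.30 SE, adjusted p = 0.176, edgeR). HOXD3 was also lower in both Ni-E than in both UT replicates (2.68 and 2.32 against 3.63 and 4.40 TPM). The posterior gene HOXD11 had 0.730 and 1.17 TPM in UT, 2.26 and 2.63 in Ni-E and 2.46 and 1.86 in Ni-W cells, lowest in both UT replicates (log2 1.30 ± 0.41 SE in Ni-E, adjusted p = 0.244, edgeR). HOXD10, at or below 0.560 TPM, was likewise higher in both Ni-E replicates than in UT, and the posterior HOXD13 overlapped between UT and Ni-E. The posterior HOXD9 was lower in both Ni-E than in both UT replicates (13.38 and 11.19 against 15.27 and 13.63 TPM, log2 −0.25). Of these members beside HOXD1, 0 were called without the block and HOXD4, HOXD10 and HOXD11 with it (adjusted p = 0.00631, 0.0381 and 0.0244, edgeR).

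After washout, 0 of 32 HOX genes were called in RT4 Ni-W against UT cells by edgeR, where 0.503% of all genes rose and 0.0965% fell. A p under 0.05 before adjustment was found for 10 members (31.2%) and for 9.12% of all genes, and DESeq2 called 2 (HOXC6 and HOXD1) among 437 of all genes. With the replicate block, edgeR called 5, with HOXA2, HOXB9, HOXB13 and HOXC6 higher and HOXD1 lower, where 8.57% of all genes were called in either direction. Of these, HOXB9 and HOXC6 passed the expression filter only with their nickel groups, which set their direction. The median log2 fold change was 0.06 over the members and 0.00 over all genes. HOXA2 had 1.35 and 1.55 TPM in UT, 2.90 and 3.38 in Ni-E and 2.89 and 4.72 in Ni-W cells, with UT below all others (adjusted p = 0.0126 in Ni-W against UT with the replicate block, edgeR).

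Between Ni-W and Ni-E cells 0 of 32 members were called by edgeR, where 0.0% of all genes rose and 0.0% fell, and 0 by DESeq2, which called 139 of all genes. The replicate block also gave 0 members, where 4.52% of all genes were called. A p under 0.05 before adjustment was found for 3 members (9.38%) and for 5.57% of all genes. All 3 comparisons share groups, so that their values stand side by side and are not independent. Replicates that did not overlap between groups were found for 23 of the 32 members in Ni-E against UT, where 38.6% of all genes tested did not overlap. The counts were 15 in Ni-W against UT (28.3% of all) and 15 in Ni-W against Ni-E (25.1% of all).

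**Figure D5:**
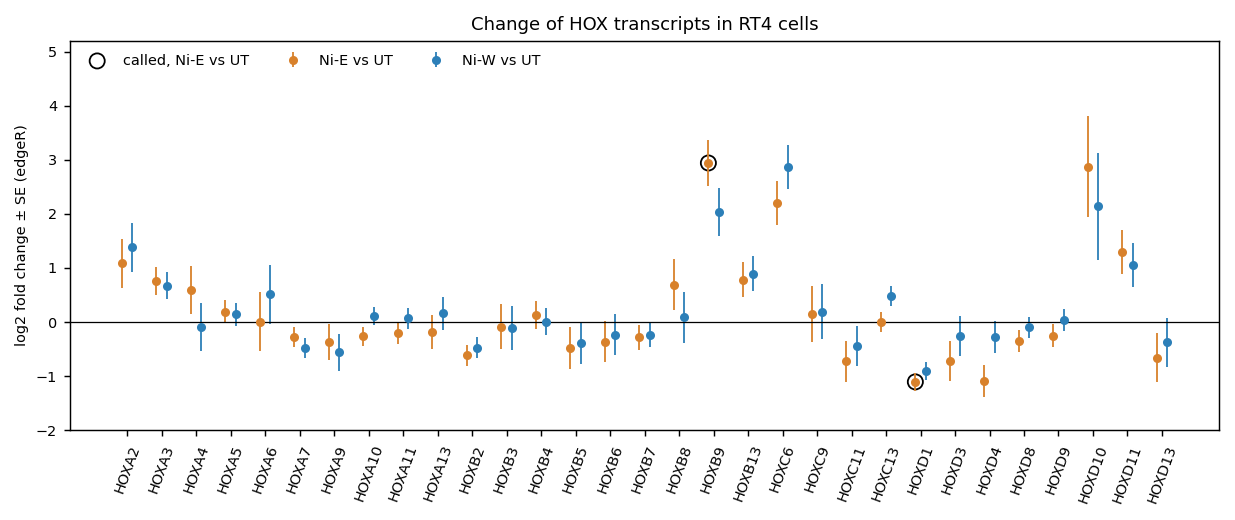
Log2 fold change ± SE (edgeR, 2 replicates per group) against UT of the HOX genes named here and tested in RT4 cells, in order of cluster and paralog, with rings around the 2 called genes. HOXB9, at 2.94, and HOXD1, at −1.11, are ringed, and HOXC6 lies nearly as far from 0 in Ni-W, at 2.87, without being called.

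The RNA libraries were made with a TruSeq RNA kit that does not mark strand, and 25 of the 39 members overlap a named gene on the other strand, so that reads of the pair cannot be told apart. HAGLR, antisense to HOXD1, had 42.6 and 32.8 TPM in UT, 21.5 and 19.4 in Ni-E and 32.0 and 22.7 in Ni-W cells, lower in both Ni-E replicates than in any other library, with a log2 difference of −0.88 in Ni-E (adjusted p = 0.0670, or 0.000338 with the replicate block, edgeR). Of 16 noncoding genes inside the clusters, 11 were tested and 0 were called in any comparison, and of 9 flanking genes tested 0 were called. With the replicate block, HAGLR, HOTAIRM1 and the flanking gene EVX1 were lower and 1 other flanking gene (LNPK) was higher in Ni-E against UT. With this block 12.6% of all genes were called in either direction. HOXC13-AS and CBX5 were higher in Ni-W against UT with the block, where 8.57% of all genes were called. EVX1, the homeobox gene beside HOXA13, had 45.4 and 39.5 TPM in UT, 23.0 and 21.5 in Ni-E and 33.8 and 30.5 in Ni-W cells (log2 −0.94 in Ni-E, adjusted p = 0.0693, or 0.000292 with the replicate block, edgeR).

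In RT4 cells 6 TALE cofactors, 27 Polycomb genes, 13 genes of the MLL and UTX complexes and related enzymes and 1 caudal or ParaHox gene were tested. Of these, 0 were called in any comparison by edgeR, with or without the replicate block. Retinoic acid sets the anterior borders of HOX genes, and of 8 retinoid genes tested 2 rose in Ni-E cells, where 1.45% of all genes rose. RARB, a retinoic acid receptor and a known target of it, had 0.0800 TPM in both UT replicates, 1.72 and 1.68 in Ni-E and 0.800 and 0.360 in Ni-W cells (log2 4.54 in Ni-E, adjusted p = 0.0228, edgeR). ALDH1A1, which makes retinoic acid, had 0.270 and 0.160, 2.01 and 2.68, and 0.740 and 0.310 TPM in the same order (log2 3.49, adjusted p = 0.0363, edgeR). Both were at or below 0.270 TPM in UT cells, so that a fall from UT could hardly have been called. RARB and ALDH1A1 were lower in Ni-W than in Ni-E cells in each replicate and were not called against UT after washout. In the same list, ALDH1A3 had 63.06 and 41.35 TPM in UT and 35.63 and 29.80 in Ni-E cells (log2 −0.66). ALDH1A2 had 7.46 and 5.22 TPM in UT and 4.01 and 4.56 in Ni-E cells (log2 −0.56). Neither was called without the replicate block. With the replicate block, which called 12.6% of all genes in Ni-E against UT, 8.57% in Ni-W against UT and 4.52% in Ni-W against Ni-E, ALDH1A3 also fell in Ni-E cells, RARB was higher in Ni-W than in UT cells (adjusted p = 0.0137, edgeR), and RARB and ALDH1A1 were lower in Ni-W than in Ni-E cells (adjusted p = 0.0167 and 0.00788, edgeR).

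RT4 cells transcribed the markers of the bladder lining that their label calls for. All 11 urothelial markers were tested, their sum lay between 5864 and 8122 TPM, and KRT7 was the most abundant. In Ni-E cells, where 0.71% of all genes fell, 2 fell, KRT20 (11.1 and 11.3 TPM in UT, 0.250 and 0.110 in Ni-E, 1.59 and 1.37 in Ni-W, log2 −6.03 in Ni-E, adjusted p = 0.0085, edgeR) and UPK1A (70.6 and 92.5, 16.1 and 18.5, 39.6 and 44.4, log2 −2.27, adjusted p = 0.0376). KRT20 also fell against UT in Ni-W cells (log2 −2.97, adjusted p = 0.0294, edgeR). With the replicate block 7 urothelial markers fell in Ni-E cells (12.6% of all genes called in either direction), 2 (KRT20 and UPK1A) fell in Ni-W against UT cells (8.57% of all) and 6 were higher in Ni-W than in Ni-E cells (4.52% of all). The 5 general epithelial markers and the 3 bronchial and 3 mesenchymal ones tested had 0 calls, and with the block KRT5, COL3A1 and CDH2 were higher against UT in both Ni-E and Ni-W cells. The mesenchymal sum was between 1.39 and 2.13 TPM in UT, 3.98 and 6.16 in Ni-E and 3.03 and 6.77 in Ni-W cells, with COL3A1 the most abundant and COL1A2 at 0. The blood sum was at most 0.730 and the endothelial sum at most 0.0600 TPM. The part of these marker shifts in the HOX values was not tested.

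The lines and the measures cannot be told apart, since H3K4me3 was read in one line and RNA in the other. Set side by side in UT cells, 16 members had at least 1 RPKM of H3K4me3 in BEAS-2B and at least 1 TPM in RT4, 5 had the mark in BEAS-2B only (HOXB9, HOXC4, HOXC5, HOXC6 and HOXC8), 12 had the transcript in RT4 only and 6 had neither. The 12 included HOXA7, HOXA9 and HOXA10 and the HOXD genes HOXD3, HOXD4, HOXD8, HOXD9 and HOXD13. Across the 39 genes the rank correlation of the 2 levels was −0.08, and the points of a cluster share a region and, for HOXC4, HOXC5 and HOXC6, a window. HOXB9 and HOXC6, both higher in RT4 Ni-E cells than in UT, were marked in BEAS-2B UT cells and had lower H3K4me3 in BEAS-2B Ni-W than UT cells under each of the 3 scalings run. For HOXC6, read at the window shared with HOXC4 and HOXC5, the log2 ratio was −0.50, not past 1.5-fold, and −0.19 after quantile normalization. The −0.50 lay within the middle range of all promoters between 3 and 7 RPKM (−0.55 to −0.07). HOXD1 was lower in RT4 Ni-E and Ni-W cells than in UT, while its H3K4me3 level in BEAS-2B Ni-W cells was not below that in UT. Other members, picked after their values were seen, differed in the same direction, with RT4 read during exposure and BEAS-2B after washout. HOXB2 was lower in RT4 Ni-E and in BEAS-2B Ni-W cells than in UT. In BEAS-2B Ni-E cells its log2 ratio to UT was 0.02. HOXD10 and HOXD11 were higher in both, with H3K4me3 below 1 RPKM (log2 0.88 and 1.91 in Ni-W, 1.32 and 0.27 in Ni-E). HOXB2, HOXD10 and HOXD11 were not called in RT4 Ni-E cells without the replicate block (adjusted p = 0.238, 0.266 and 0.244, edgeR). BEAS-2B RNA was not analysed here, so that neither line had both measures.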

How the data were processed

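H3K4me3 ChIP-Seq was read in 3 BEAS-2B libraries and RNA-Seq in 6 RT4 libraries, grouped by their labels. The members and the lists of related genes were chosen with earlier results of these data known. The authors mapped the ChIP-Seq reads with BWA (hg38), removed duplicate reads and deposited RPKM per promoter, with no peak calls. ChIP was described as made on 2 biological replicates, but 1 set of values per condition was used here. The deposited RPKM are whole multiples of 1 step per library (within 0.0005 RPKM), from which reads and depth were recovered. A promoter was past the fold at 1.5-fold after division by the library median, with at least 1 RPKM in 1 of the 2 libraries, without a test.

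RSEM estimated counts and TPM per gene were deposited by the authors for RNA-Seq. The methods name STAR on hg19 and DESeq2, the labels name GRCh38, and whether the estimated counts came from those alignments is not given in the sources used here. Estimated counts were rounded and tested in edgeR 4.0.16 (R 4.3.3) by the quasi-likelihood test with TMM factors and filterByExpr, in a single model of all 3 groups. TPM served for levels and, in limma 3.58.1 on log2(TPM + 1), as an alternative beside DESeq2 1.42.0 and other settings. The scripts were tested on simulated data. Replicates differed by more than sampling noise. The study describes 2 biological replicates for RNA, and no source used here says whether they were separate cultures, so that p-values measure the spread between these samples. The replicate number rests on a duplicate suffix in the titles, but differences between the replicates correlated between conditions over genes (0.658 for UT and Ni-E, 0.764 for UT and Ni-W, 0.689 for Ni-E and Ni-W), so that a fit with the replicate number as a block is given beside results whose call it changes.

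Values in every library were given for members called in RT4 cells, the 2 highest in mean TPM per cluster, the 3 highest and 3 lowest scores per comparison in BEAS-2B cells among members at 1 RPKM or above, and the highest UT level of HOXB, HOXC and HOXD. Other genes given in full (HOXC6, HOXD3, HOXD4, HOXD10, HOXD11, HOXA2, HOXA5, HAGLR and EVX1) were added after their values were seen. Gene positions came from GENCODE version 44 on GRCh38 for 22950 promoters by symbol and for 24280 with older symbols matched through RefSeq, and sequences from RefSeq on GRCh38.p14. A few results are not reported here, and the counts and medians include them.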

Additional observations from a re-analysis of the deposited data

How the results depend on the processing

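For the HOX genes called in RT4 Ni-E against UT cells, which were 2, the count was 2 with RLE size factors, with the adjusted p alone or with only the 2 groups compared, 3 with DESeq2 or no filter, 1 with at least 10 counts in every sample, 0 with limma on log2(TPM + 1) or log2(TPM + 0.1), and 9 with the replicate block (HOXA2, HOXA3, HOXB9, HOXC6, HOXD10 and HOXD11 up, HOXB2, HOXD1 and HOXD4 down). It was 0 to 1 when each replicate was left out in turn, with the lone sample assumed to vary like the other groups. For Ni-W against UT, where 0 were called, it was 2 with DESeq2, 1 with no filter, 1 with either limma fit, 5 with the replicate block (HOXA2, HOXB9, HOXB13 and HOXC6 up, HOXD1 down), and 0 in each leave-one-out fit. The 0 of Ni-W against Ni-E was 0 in all alternatives. Over all genes the replicate block raised the calls from 314 to 1833 in Ni-E against UT and from 87 to 1243 in Ni-W against UT, and gave 655 in place of 0 in Ni-W against Ni-E, and DESeq2 gave 734, 437 and 139. With no filter the calls were 449, 193 and 14, and with at least 10 counts in every sample 209, 54 and 0. Left-out replicates gave 0 to 320, 0 to 38 and 0. With limma on log2(TPM + 1) they were 170, 79 and 0. The block changed no call of a HOX gene other than those named. With the main expression filter, HOXB9, HOXC6 and HOXD10 were tested only through their nickel groups and could only be called higher than UT. The sign of HOXD1 did not turn in any alternative, nor did that of HOXB9 in those that gave it a value, which leaves out both limma fits and the minimum of 10 counts. The cause of these differences was not tested.

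The median HOX score of Ni-E against UT (0.0335) reversed to −0.0171 without median scaling and −0.00622 after quantile normalization, and was 0.00981 over members with at least 1 RPKM in any library. That of Ni-W against UT (−0.0210) was −0.179, −0.0505 and −0.247 in the same order, and that of Ni-W against Ni-E (−0.0852) was −0.177, −0.0612 and −0.203, and −0.137 as the log2 ratio of (RPKM + 1). Keeping 35 members without overlapping windows, at starts taken from GENCODE, gave 0.0288, −0.0166 and −0.0671 for these 3 medians. At this depth, a ratio of a promoter with 37 reads, as HOXD8 in UT cells, is known only to within about 0.5 on the log2 scale.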

Other observations

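The 6 miRNA genes inside the clusters were picked after their values were seen. In BEAS-2B cells 2 of them (MIR10A and MIR615) reached 1 RPKM, of which 0 were past 1.5-fold in either direction in Ni-W against UT. In Ni-W against Ni-E cells 1 (MIR615) was lower, where 30.5% of all promoters were lower. These miRNAs repress many targets, among them HOX mRNAs. The mature miR-10a-5p, from the HOXB cluster (chr17:48579904-48579926), miR-196a-5p, from MIR196A1 in HOXB (chr17:48632532-48632553) and MIR196A2 in HOXC (chr12:53991762-53991783), and miR-196b-5p, from HOXA (chr7:27169528-27169549), are shown because their promoter levels are given here and the last pair share a seed, with the seed (bases 2 to 8) in capitals (RefSeq, GRCh38.p14).
miR-10a-5p: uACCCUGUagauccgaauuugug
miR-196a-5p: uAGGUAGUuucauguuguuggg
miR-196b-5p: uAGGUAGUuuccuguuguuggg
The 2 miR-196 sequences differ at 1 base, A12C, counted from the 5′ end of miR-196a-5p. H3K4me3 at MIR196A2 was 0.907 RPKM in UT, 0.940 in Ni-E and 0.426 in Ni-W cells, and at MIR196B it was 0.229, 0.113 and 0.994, below 1 RPKM in every library, with MIR196A2 the higher in UT and Ni-E and MIR196B in Ni-W cells. MIR196A1 had 0.379, 0.467 and 0.225 RPKM, and MIR10A had 2.58, 2.49 and 1.44. All 6 miRNA genes (with MIR10B and MIR615) were listed at 0 in the RT4 RNA-Seq, which does not measure mature miRNAs.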
